A study of Mus musculus with 6 samples.

Results

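Amino acid transporters of the plasma membrane and lysosome were followed in a mouse leukaemia line carrying a hairpin against Hlx. The members were all genes of the solute carrier families Slc1, Slc3, Slc7, Slc36, Slc38 and Slc43, taken by symbol, with the brightest probe set (the group of array probes that reads a single gene) standing for each gene. This gave 42 genes of the 19938 genes tested, all of them tested with no filter on signal. Gene expression was measured on 6 Affymetrix arrays, 3 labelled shControl and 3 labelled shHLX. URE is a mouse leukaemia line. It is taken here to lack an upstream regulatory element of the gene for the myeloid transcription factor PU.1, a deletion that both groups would carry and that the labels do not state. Both groups received the lentiviral vector pSIH1-H1-copGFP. It carried a short hairpin against luciferase, which the cells do not make, in shControl, or a hairpin against the homeobox gene Hlx in shHLX, and GFP+ cells were sorted. Cells were exposed to virus in medium with interleukin 3, interleukin 6 and stem cell factor and grown for several days before RNA was taken, with 10 ng of RNA amplified for each array. The stated aim was the role of Hlx in blood cell differentiation and tumour formation. The labels do not say how many hairpin sequences were used or whether the replicates were separate infections or cultures, so the p-values reflect the scatter of these arrays alone, part or all of which may be technical.

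Amino acids cross the plasma membrane through carriers that differ in substrate and driving force. Most light chains of the Slc7 family reach the surface only when joined by a disulfide bond to a heavy chain, Slc3a2 (also called CD98 or 4F2hc) or Slc3a1. Slc7a5 and Slc7a8 exchange leucine and other large neutral amino acids as partners of Slc3a2, Slc43a1 and Slc43a2 carry similar substrates by facilitated diffusion with no heavy chain, and Slc7a11 brings in cystine, a building block of glutathione, in exchange for glutamate. Slc7a11 is a known target of the transcription factors ATF4, which acts when amino acids run short, and NRF2, which acts under oxidative stress.

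Upstream sequences of 4 members are shown here because they pair the heavy chain Slc3a2 with a light chain that was called higher, Slc7a11, and set beside each other the close relatives Slc43a1 and Slc43a2, which were called in opposite directions. Each is the 250 bases before a RefSeq start site, 5′ to 3′ on the gene's own strand, in build GRCm38.p6. Capitals mark matches, on either strand, to the CARE motif TGATGNAA (read by ATF4 with a C/EBP partner), the antioxidant response core TGACNNNGC, or the E-box CACGTG. The windows lie at chr3:50443614-50443863 on the minus strand for Slc7a11, chr19:8713898-8714147 on the minus strand for Slc3a2, chr2:84840073-84840322 on the plus strand for Slc43a1 and chr11:75531444-75531693 on the plus strand for the first of the Slc43a2 windows.
Slc7a11: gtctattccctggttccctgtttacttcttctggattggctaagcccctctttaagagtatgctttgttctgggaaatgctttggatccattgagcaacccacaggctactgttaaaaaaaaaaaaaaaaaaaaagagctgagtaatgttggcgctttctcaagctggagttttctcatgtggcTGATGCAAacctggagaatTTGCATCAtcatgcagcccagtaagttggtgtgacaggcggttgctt
Slc3a2: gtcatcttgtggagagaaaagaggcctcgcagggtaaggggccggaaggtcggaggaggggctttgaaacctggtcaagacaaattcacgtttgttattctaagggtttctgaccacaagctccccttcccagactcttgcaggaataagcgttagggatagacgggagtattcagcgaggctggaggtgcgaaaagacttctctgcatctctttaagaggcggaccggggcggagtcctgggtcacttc
Slc43a1: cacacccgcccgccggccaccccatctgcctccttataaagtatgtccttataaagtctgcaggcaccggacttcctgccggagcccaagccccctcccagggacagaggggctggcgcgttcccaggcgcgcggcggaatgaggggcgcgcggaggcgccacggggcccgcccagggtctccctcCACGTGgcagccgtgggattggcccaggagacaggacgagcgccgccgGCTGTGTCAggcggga
Slc43a2: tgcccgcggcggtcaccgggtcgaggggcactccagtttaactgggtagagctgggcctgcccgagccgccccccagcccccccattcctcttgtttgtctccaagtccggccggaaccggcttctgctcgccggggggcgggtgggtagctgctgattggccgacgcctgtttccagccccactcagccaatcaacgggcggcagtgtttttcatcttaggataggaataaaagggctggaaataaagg
The Slc7a11 window held a CARE match at positions -66 to -59 from the start site and another, on the opposite strand, at -47 to -40. In Slc43a1 the E-box lay at -64 to -59 and the antioxidant core at -16 to -8, and no matches in the printed windows overlapped. Slc3a2, Slc7a8 and both Slc43a2 windows held none of these letters. The RefSeq promoter table held windows for 31 of the 42 members, 42 windows in all since some genes have several start sites, and 4 of the 6 called members were among the 31. CARE letters stood in 3 of the 42 member windows, belonging to Slc7a11 and Slc7a7, against 3.45% of all 32851 windows of that length. The antioxidant core stood in 4 windows against 10.2% of all, and the E-box in 7 windows against 6.02%. These matches describe sequence and say nothing about binding.

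The arrays were alike in level, with median log2 signals from 7.02 to 7.10. Correlations over all genes ran from 0.9978 to 0.9987 within groups and from 0.9942 to 0.9959 between them. The first principal component, 59.45% of the variance, separated the groups, and the second, 18.13%, had shControl 1 and shHLX 3 at the opposite end from the rest. Hlx itself was 10.21, 10.12 and 10.20 in shControl and 10.08, 10.06 and 10.17 in shHLX, so the groups overlapped. The Hlx level in shHLX was 95.1% of control (95% interval 87.8 to 103, n = 3 per group), which did not pass limma (adjusted p = 0.479) or an exact two-sided permutation test (p = 0.2, the smallest possible being 0.1). These arrays do not show a lower Hlx transcript beyond their spread, and every direction given here rests on the labels. The myeloid granule genes Elane, Prtn3 and Ctsg were bright, whereas the leukocyte antigen gene Ptprc, at a log2 mean of 6.04, was below the median signal of 7.40. Of 12 myeloid markers, 25% were called, against 6.18% of all genes. Mpo fell to 36.3% and Kit to 60.4% of control and Itgam rose 1.68-fold (limma adjusted p = 0.00151, 6.37e-05 and 0.000615). Of the markers of other cells, none of 10 lymphoid, 5 erythroid or 5 megakaryocyte genes was called, while Vsig4 (of 7 macrophage genes) and Fbln1 (of 8 stromal genes) rose 1.21-fold and 1.24-fold and Cdh5 (of 7 endothelial genes) fell to 15.6% of control (limma adjusted p = 0.0289, 0.0479 and 6.66e-07). The calls of Vsig4 and Fbln1 did not survive the loss of some single arrays (adjusted p as high as 0.126 for Vsig4 and 0.155 for Fbln1). Mean log2 levels of the endothelial list ran from 6.91 to 6.97 in shControl and from 6.51 to 6.54 in shHLX. Those of the myeloid list ran from 10.48 to 10.49 and from 10.34 to 10.41. The median difference was only -0.02 log2 in the endothelial list, where Cdh5 differed by -2.68, and -0.03 in the myeloid list. For the macrophage list mean levels ran from 5.80 to 5.96 and from 5.86 to 5.95, and for the stromal list from 6.58 to 6.68 and from 6.57 to 6.72. The erythroid list, with 2 of its 5 genes at an unadjusted p under 0.05 (19.4% over all genes), ran from 6.62 to 6.72 and from 6.51 to 6.56, with a median difference of -0.13. The part of these marker changes in the transporter results was not tested.

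Among the 42 transporters, 3 were called higher in shHLX (Slc7a11, Slc43a2 and Slc7a5), 3 lower (Slc7a8, Slc7a4 and Slc43a1), and 36 did not pass limma at an adjusted p of 0.05. That is 14.3% of the members, against 6.18% of all 19938 genes (3.75% higher and 2.43% lower). The median difference, shHLX minus shControl, was -0.02 log2 over the members and -0.01 over all genes, and 20 of the 42 lay above 0. The median size of the difference, whatever its sign, was 0.0878 log2 in the members and 0.0687 in all genes. Changes were small, since all 42 members differed by less than 1.5-fold. In 18 members the arrays of the groups did not overlap, 42.9% against 26.2% of all genes. Under a variance prior that follows signal intensity, 10 members were called, against 11.3% of all genes. Without variance moderation 6 were called, against 4.2% of all genes, with Slc38a1 and Slc7a1 in place of Slc7a8 and Slc43a2. An unadjusted p under 0.05 was found for 15 of the 42 members and for 19.4% of all genes. Since RNA came from a bulk sorted population, fewer cells of a type and less RNA per cell cannot be told apart.

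**Figure D1:**
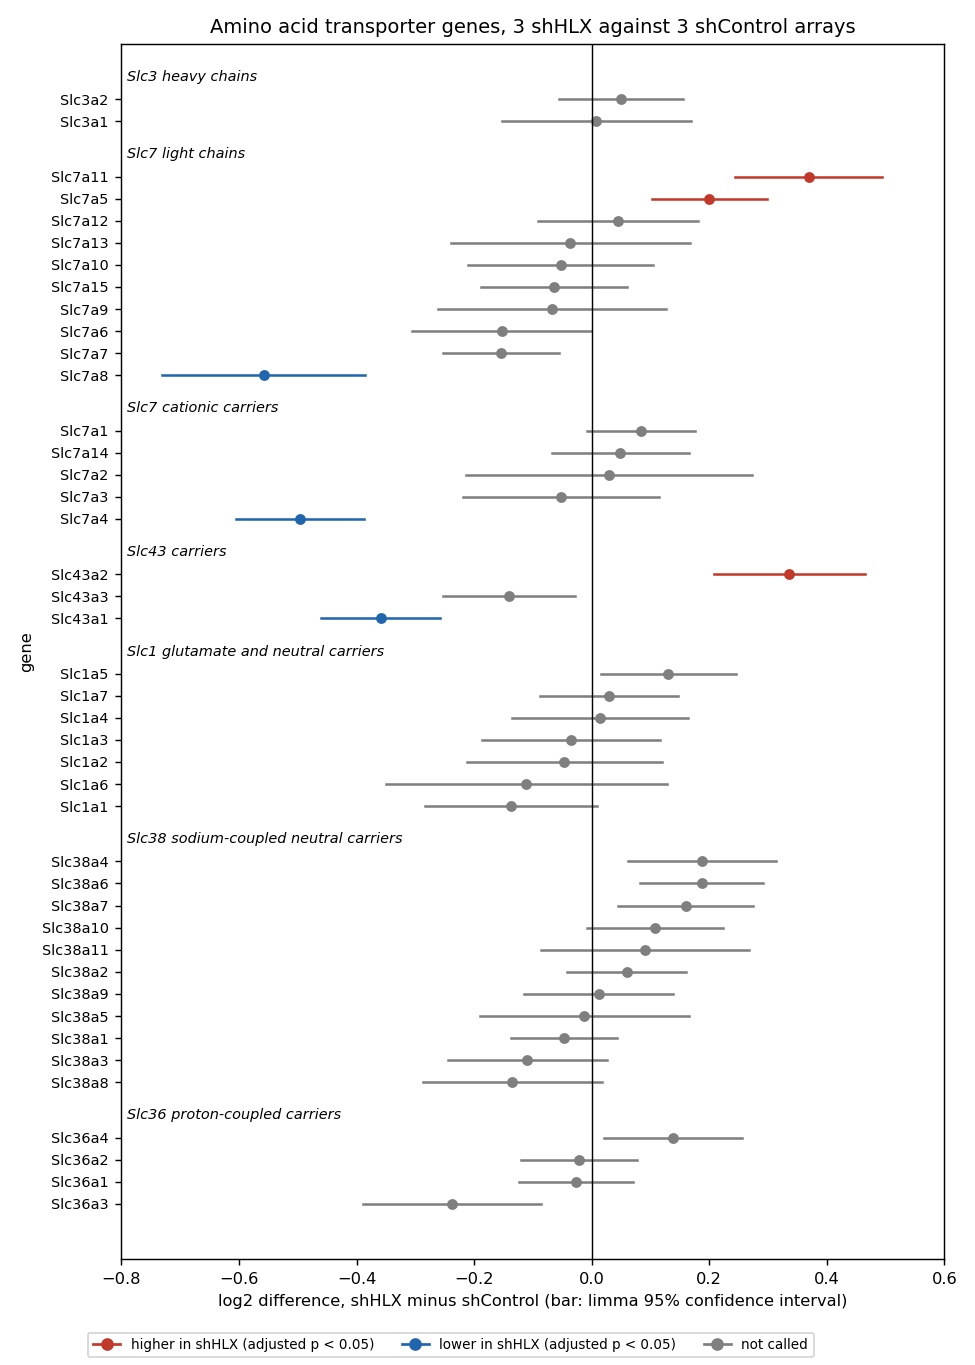
Log2 difference, shHLX minus shControl, of each of the 42 transporters with its 95% interval from limma, ordered by family (n = 3 arrays per group). Red points (higher) and blue points (lower) passed an adjusted p of 0.05, and grey points did not. The 3 higher and 3 lower members lie in the Slc7 and Slc43 families, and all members of the Slc1, Slc3, Slc36 and Slc38 families are grey.

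Of the heavy chains, neither Slc3a2 nor Slc3a1 was called, and none had an unadjusted p under 0.05. Slc3a2 (probe set 10465772, Entrez gene 17254) measured 12.23, 12.21 and 12.28 in shControl and 12.25, 12.33 and 12.29 in shHLX. It is among the brighter genes of these arrays, and its groups overlapped. The means were 12.24 ± 0.035 and 12.29 ± 0.043 (SD, n = 3 each), a 1.04-fold difference with a 95% interval of 0.963 to 1.11 (limma adjusted p = 0.601). The interval leaves room for a small change either way. Slc3a1, the heavy chain of the kidney cystine carrier, ran from 6.34 to 6.57 over the arrays and differed by 0.01 (SE 0.069).

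The Slc7 light chains held 2 of the higher and 1 of the lower members among 10 genes (30% called, against 6.18% of all genes). Their median difference was -0.06 log2. Slc7a11, the cystine and glutamate exchanger (probe set 10498024, Entrez gene 26570), measured 6.49, 6.46 and 6.42 in shControl and 6.74, 6.91 and 6.82 in shHLX. All 3 shHLX arrays stood above all 3 shControl arrays. Mean levels were 6.46 ± 0.032 and 6.82 ± 0.084 (SD, n = 3 each), a rise of 1.29-fold (95% interval 1.184 to 1.41, limma adjusted p = 0.00604). Dropping each array in turn left it called, at adjusted p between 0.0119 and 0.0364. Of the 17 alternatives it came nearest to the threshold without variance moderation, where it passed only narrowly (adjusted p = 0.0495). Slc7a11 was a dim gene, below the median signal of all genes, and detection calls were not used here. The upstream window of Slc7a11, printed above, carries the paired CARE letters, and that of its partner Slc3a2 carries none. Slc7a7, which also has CARE letters upstream, was not called and differed by -0.15. Whether these letters bear on any difference was not tested.

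Slc7a5 and Slc7a8, the light chains that exchange leucine and other large neutral amino acids with the same heavy chain, were called in opposite directions. Slc7a5 (probe set 10582275, Entrez gene 20539) measured 11.86, 11.90 and 11.90 in shControl and 12.08, 12.06 and 12.12 in shHLX. The groups did not overlap, and the spread within each was small beside the gap. Means of 11.89 ± 0.023 and 12.09 ± 0.031 (SD, n = 3 each) gave a 1.15-fold rise (95% interval 1.07 to 1.23, limma adjusted p = 0.0321). Dropping any array ended this call (adjusted p 0.0666 to 0.117), and it also ended with the replicate block (0.106), without shControl 1 and shHLX 3 together (0.178) and when all probe sets were tested (0.0820).

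Slc7a8 (probe set 10419854, Entrez gene 50934) measured 7.03, 6.84 and 6.97 in shControl and 6.41, 6.50 and 6.26 in shHLX. Every shHLX array was below every shControl array, and the gap was several times the spread. From means of 6.95 ± 0.093 and 6.39 ± 0.12 (SD, n = 3 each), the level in shHLX was 67.9% of control, a 1.47-fold fall (95% interval 1.31 to 1.66, limma adjusted p = 0.00398). It passed with each array dropped in turn, and of the 17 alternatives it missed the threshold only without variance moderation (adjusted p = 0.0627). Like Slc7a11 it was dim, below the median signal of all genes. Among the members it had the largest difference in either direction.

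The remaining light chains did not pass. Slc7a7, which pairs with Slc3a2 to exchange cationic for neutral amino acids, measured 9.24, 9.23 and 9.20 in shControl and 9.03, 9.10 and 9.08 in shHLX. Its groups did not overlap, and its difference of -0.15 (95% interval -0.25 to -0.06) had a limma adjusted p of 0.0878. Slc7a6, a carrier with similar substrates, differed by -0.15 with an adjusted p of 0.255 by limma, and its groups overlapped. The other 5, Slc7a9 (partner of Slc3a1), Slc7a10, Slc7a12, Slc7a13 and Slc7a15, differed by -0.07 to 0.05, with overlapping groups and adjusted p from 0.562 to 0.863.

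**Figure D2:**
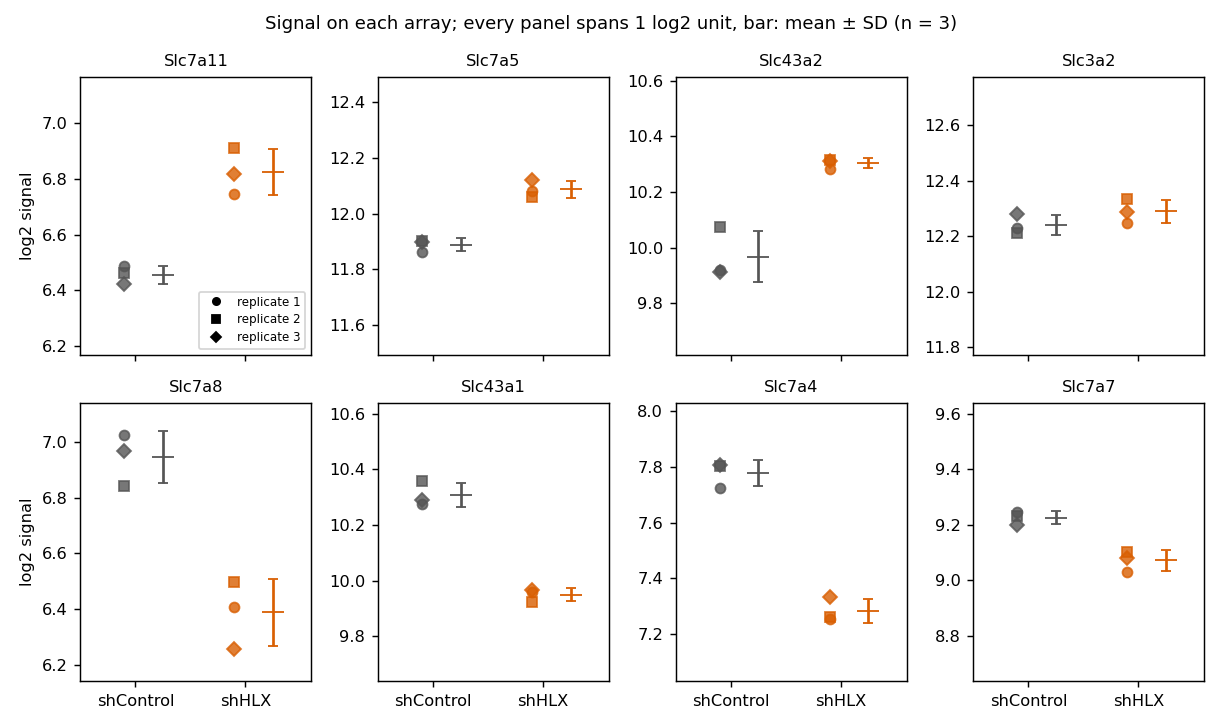
Log2 value on each of the 6 arrays of the 6 called transporters, Slc3a2 and Slc7a7, with the group mean as a bar and 1 SD as the error (n = 3 per group); each panel spans 1 log2 unit on an axis that does not start at 0. The groups are apart in the 6 called genes and in Slc7a7, which was not called, and overlap in Slc3a2.

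The Slc43 family gave a second pair of opposite calls. Slc43a1 (LAT3; probe set 10473367, Entrez gene 72401) measured 10.28, 10.36 and 10.29 in shControl and 9.96, 9.92 and 9.97 in shHLX. All 3 shHLX arrays were lower. Its means of 10.31 ± 0.043 and 9.95 ± 0.024 (SD, n = 3 each) put shHLX at 78.0% of control, a 1.28-fold fall (95% interval 1.19 to 1.38, limma adjusted p = 0.00254). The call held without any 1 array, with adjusted p from 0.00811 to 0.0161.

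Slc43a2 (LAT4; probe set 10378649, Entrez gene 215113) measured 9.92, 10.07 and 9.91 in shControl and 10.28, 10.31 and 10.31 in shHLX. The shHLX arrays were all higher and lay close together. Means of 9.97 ± 0.092 and 10.30 ± 0.018 (SD, n = 3 each) gave a 1.26-fold rise (95% interval 1.16 to 1.38, limma adjusted p = 0.0105). It missed the threshold without shControl 3 (adjusted p = 0.0568), without shControl 1 and shHLX 3 together (0.0754), and without variance moderation (0.0652). The third member, Slc43a3, which is known as a carrier of purine nucleobases, was 11.84, 11.91 and 11.95 in shControl and 11.72, 11.80 and 11.76 in shHLX. Its groups did not overlap, but the difference of -0.14 (SE 0.0485) did not pass limma (adjusted p = 0.159). In RefSeq order Slc43a1 and Slc43a3 lie on chromosome 2 with 1 protein-coding gene between them.

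Of the 5 cationic carriers of the Slc7 family, only Slc7a4 was called (20%, against 6.18% of all genes), and it was lower. Slc7a4 (probe set 10438189, Entrez gene 224022), a relative of the arginine carriers with no well established transport activity, measured 7.72, 7.80 and 7.81 in shControl and 7.25, 7.26 and 7.33 in shHLX. The groups were far apart beside their spread. Means were 7.78 ± 0.046 and 7.28 ± 0.044 (SD, n = 3 each), so that shHLX was at 70.9% of control (1.41-fold lower, 95% interval 1.31 to 1.52, limma adjusted p = 0.000677), the smallest adjusted p of the members. Leaving out any 1 array kept it between 0.0016 and 0.0065. Slc7a1, the main carrier of arginine and lysine into most cells, was 10.16, 10.16 and 10.17 in shControl and 10.23, 10.27 and 10.23 in shHLX. Its groups did not overlap either, yet the 1.06-fold difference (95% interval 0.995 to 1.13) did not pass limma (adjusted p = 0.298), though it passed without variance moderation (0.0449). Slc7a2, Slc7a3 and Slc7a14 differed by -0.05 to 0.05 and overlapped.

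In the Slc38 family of sodium-coupled carriers for glutamine and other neutral amino acids, 0 of 11 genes passed limma (6.18% over all genes). An unadjusted p under 0.05 was found for 3 (19.4% over all genes), and 1 passed without variance moderation (4.2% over all genes). The groups did not overlap in 6 of the 11, 54.5% against 26.2% of all genes. The median difference was 0.06 and 7 of 11 lay above 0. Slc38a2, whose transcript rises on amino acid shortage in many cells, was 12.49, 12.46 and 12.48 in shControl and 12.50, 12.53 and 12.58 in shHLX. Each shHLX array was higher, by a 1.04-fold mean (95% interval 0.972 to 1.12) that did not pass limma (adjusted p = 0.504). Slc38a1 went the other way, by -0.05 (adjusted p = 0.563 by limma). It measured 11.40, 11.41 and 11.42 in shControl and 11.36 on each shHLX array, without overlap, while a second and dimmer Slc38a1 probe set differed by 0.08, in the opposite direction. It is the Slc38 gene that passed without moderation, with an adjusted p of 0.0438. Slc38a6 came nearest to the threshold, a gene singled out after its values were seen. Its arrays read 9.53, 9.45 and 9.50 in shControl and 9.65, 9.68 and 9.72 in shHLX, with no overlap, for a 1.14-fold difference (95% interval 1.06 to 1.22, limma adjusted p = 0.0538).

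The lysosomal members Slc38a9 and Slc38a7 behaved unequally in overlap, but neither was called. Slc38a9, which senses lysosomal arginine for mTORC1, differed by 0.01 on each of its probe sets, and its groups overlapped. Slc38a7, a lysosomal glutamine carrier, was 8.77, 8.70 and 8.82 in shControl against 8.91, 8.97 and 8.88 in shHLX, 1.12-fold higher (95% interval 1.03 to 1.21, limma adjusted p = 0.120). Among the rest of the family, Slc38a4 (0.19, adjusted p = 0.1004) and Slc38a10 (0.11, adjusted p = 0.295) showed higher shHLX arrays without overlap and did not pass limma. The other 4, Slc38a3, Slc38a5, Slc38a8 and Slc38a11, overlapped and differed by -0.13 to 0.09. Slc38a1, Slc38a2 and Slc38a4 are direct neighbours on chromosome 15 in RefSeq order, and none of the 3 was called.

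The Slc1 family holds the glutamate carriers and the neutral exchangers Slc1a4 and Slc1a5. None of its 7 genes passed limma, 1 had an unadjusted p under 0.05 (19.4% over all genes), and none passed without moderation. Slc1a5, a main route of glutamine into growing cells, measured 10.03, 10.10 and 10.01 in shControl and 10.12, 10.18 and 10.23 in shHLX. The shHLX arrays were all higher, and the 1.09-fold difference (95% interval 1.01 to 1.185) had a limma adjusted p of 0.202. Slc1a1, Slc1a2, Slc1a3, Slc1a4, Slc1a6 and Slc1a7 overlapped between groups and differed by -0.14 to 0.03.

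The 4 Slc36 carriers include Slc36a1 and Slc36a2, which move small neutral amino acids with protons. Of the 4, none passed limma, 2 had an unadjusted p under 0.05 (19.4% over all genes), and none passed without moderation. Slc36a1, the best known lysosomal member, measured 11.22, 11.20 and 11.20 in shControl and 11.16, 11.22 and 11.17 in shHLX. These overlapped, at 0.982-fold (95% interval 0.918 to 1.05). Slc36a4 was 10.06, 10.10 and 10.02 in shControl and 10.19, 10.13 and 10.27 in shHLX, higher on each shHLX array by 1.10-fold on the means (limma adjusted p = 0.186). Slc36a3 was dim, at 6.505, 6.47 and 6.38 in shControl and 6.20, 6.33 and 6.11 in shHLX. Its difference of -0.24 (SE 0.0654) did not pass limma (adjusted p = 0.0863). Slc36a2 differed by -0.02. Slc36a3, Slc36a2 and Slc36a1 follow each other directly on chromosome 11 in RefSeq order, and none of the 3 was called.

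**Figure D3:**
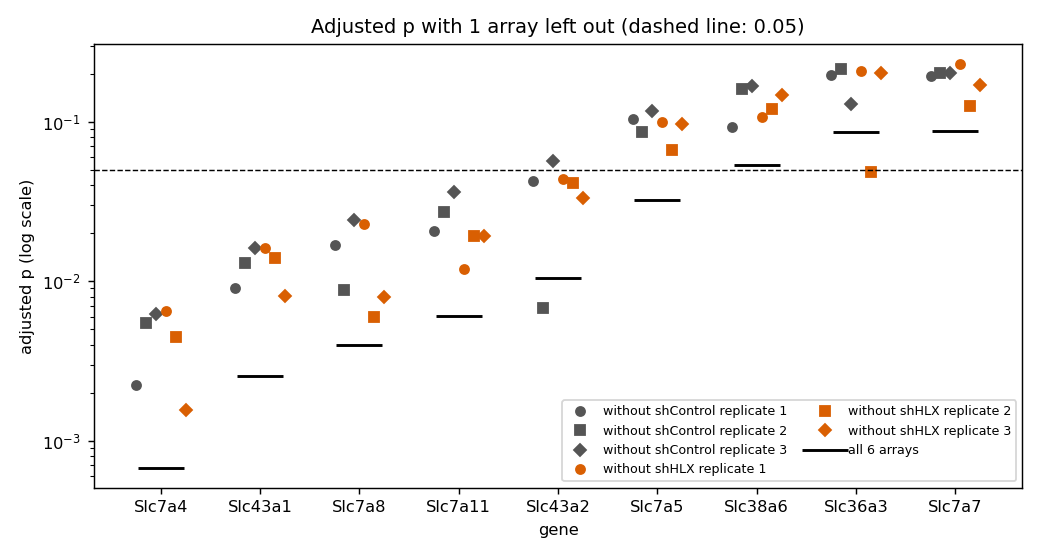
Limma adjusted p, on a log axis, of the 6 called transporters and the 3 nearest to the threshold, over all 6 arrays (bar) and with each array left out in turn (points); the dashed line is 0.05. Slc7a11, Slc7a8, Slc7a4 and Slc43a1 stay under the line in every case, Slc43a2 crosses it without shControl 3, and Slc7a5 crosses it whichever array is left out. Slc38a6, Slc36a3 and Slc7a7 lie above the line over all arrays, and Slc36a3 falls under it (0.0483) without shHLX 2.

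Of 29 carriers of amino acids outside these families, 2 rose, 2 fell and 25 did not pass limma (13.8% called, against 6.18% of all genes). The median was -0.06. This list and the companion lists below were written with earlier results of these data known, so their shares called are description and no test. Slc25a12, the mitochondrial aspartate and glutamate carrier, rose 1.37-fold (limma adjusted p = 0.00129), and the peptide carrier Slc15a2 rose 1.28-fold (0.0100, but 0.0542 without shControl 3). The vesicular GABA and glycine carrier Slc32a1 fell to 60.7% of control (0.00136). The aromatic amino acid carrier Slc16a10 fell to 80.5% (0.0246), a call lost without shControl 1, shControl 2, shControl 3 or shHLX 1 (up to 0.109).

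Genes of the ATF4 amino acid response moved in both directions. Of 27 measured, 4 rose, 1 fell and 22 did not pass limma (18.5% called, against 6.18% of all genes), with a median of 0.07 log2. Stc2, a secreted stanniocalcin, rose 1.62-fold (adjusted p = 0.00502 by limma) and Mthfd2, a mitochondrial folate enzyme, rose 1.34-fold (0.00235). Phgdh, which opens serine synthesis, fell to 65.6% of control (0.000821). Sesn2 rose 1.26-fold (0.0178), a call lost without shControl 2, shControl 3 or shHLX 1, and Ddit4 rose 1.14-fold (0.0482), a call lost without any 1 array. Atf4 itself differed by 0.05 and Asns, which makes asparagine, by 0.03, and neither was called.

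In the list named for cystine and glutathione, 2 of 22 genes rose and none fell, 9.09% against 6.18% of all genes. Neither of the 2 makes glutathione. Hmox1, which breaks down heme, rose 1.74-fold and the quinone reductase Nqo1 1.68-fold (limma adjusted p = 0.000108 and 0.000622). Gclm and Gclc, the subunits of the enzyme that starts glutathione synthesis, differed by 0.14 and 0.11 and did not pass. Mean log2 levels of that list ran from 10.07 to 10.08 in shControl and from 10.19 to 10.22 in shHLX, with a median difference of 0.07. Higher shHLX means without overlap were not particular to it. They were also found in the ATF4 list (8.96 to 9.01 and 9.05 to 9.06) and in the mTORC1, synthetase and enzyme lists described below. The means of the other carriers overlapped.

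Of 34 genes by which mTORC1 senses amino acids, 3 rose and none fell, 8.82% against 6.18% of all genes. Castor2, related to the arginine sensor Castor1, rose 1.38-fold (limma adjusted p = 0.00212). Sesn3 rose 1.26-fold (0.0120, lost without shControl 2 or shHLX 1), as did Rraga, a Rag GTPase, by 1.16-fold (0.0417, lost without any 1 array). Among 19 enzymes of glutamine, arginine and branched-chain amino acids, 3 rose and none fell, 15.8% against 6.18% of all genes. Glul, which makes glutamine, rose 1.25-fold (limma adjusted p = 0.00603) and Dbt 1.182-fold (0.0417, lost without any 1 array). Sat1 rose 1.17-fold (0.0194, kept only without shControl 1). None of 18 cytosolic aminoacyl-tRNA synthetases passed limma, 5 had an unadjusted p under 0.05 (19.4% over all genes), and none passed without variance moderation. An unadjusted limma p under 0.05 was also found for 10 of 27 genes in the ATF4 list and 14 of 34 in the mTORC1 list. The counts were 7 of 22 for glutathione, 6 of 29 for other carriers and 6 of 19 for the enzymes. Without moderation, 4.2% of all genes passed, with 3 of the ATF4, 1 of the mTORC1 and 3 of the glutathione list. For the other carriers and the enzymes, 2 passed in each list. With the intensity trend, which called 11.3% of all genes, 5 of the 18 synthetases, 8 of the 27 genes of the ATF4 list, 12 of the 34 of the mTORC1 list, 7 of the 22 of the glutathione list, 4 of the 29 other carriers and 5 of the 19 enzymes passed.

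**Figure D4:**
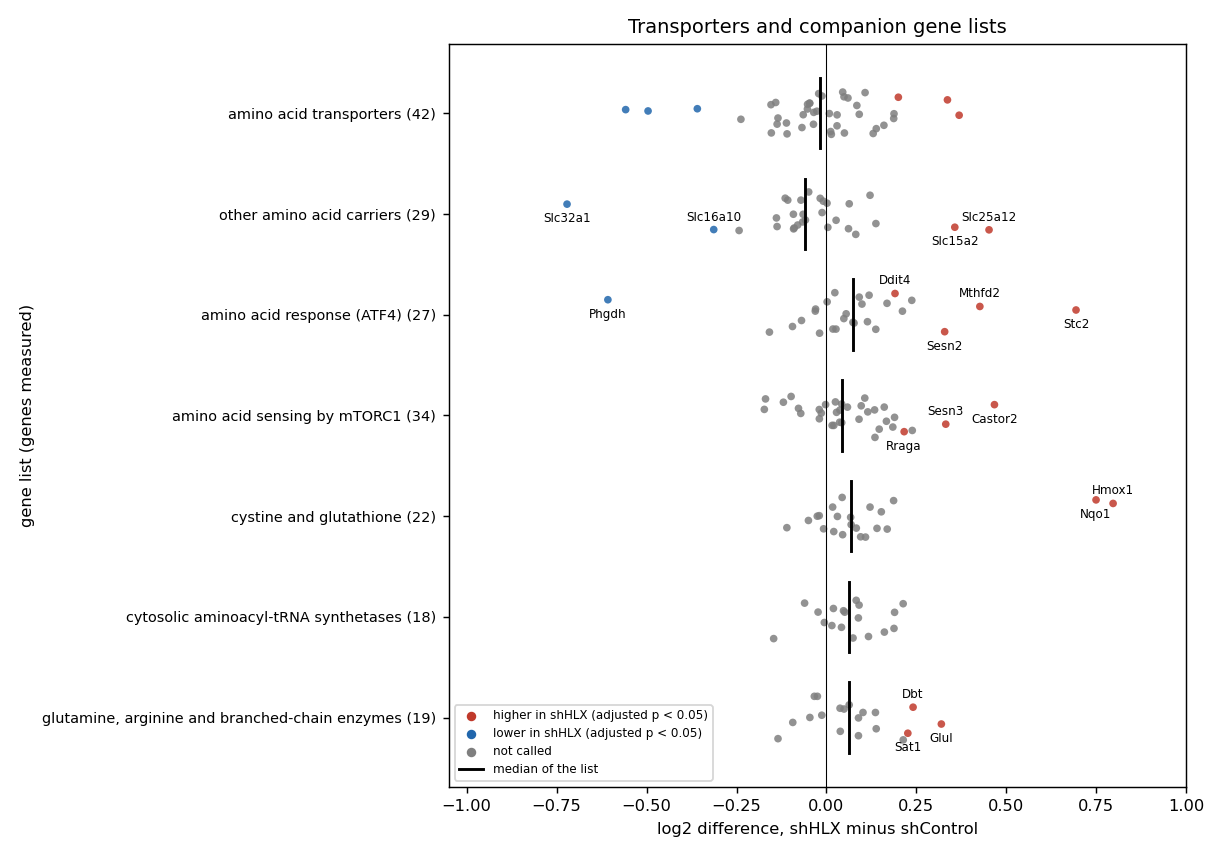
Log2 difference, shHLX minus shControl, of every gene in the 42 transporters and in the companion lists; red (higher) and blue (lower) points passed limma at an adjusted p of 0.05, grey points did not, and the vertical mark is the list median. Medians run from -0.06 to 0.07, and called genes lie on both sides of 0 in the transporters, the other carriers and the ATF4 list.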

How the data were processed

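Labels give 3 arrays per group. Per the submitters' processing notes, the authors processed the arrays with Affymetrix Power Tools 1.178 and RMA, which corrects background, normalizes by quantiles and summarizes probes; the deposited values are on the log2 scale, as their range shows. For the probe sets, the genome build is not given in the sources. Of 35556 probe sets, 21789 had 1 gene symbol, 1621 had several and 12146 were not listed in the platform annotation. Only those with 1 symbol were used, the brightest by mean over the 6 arrays for each of 19938 genes (999 had several). All 42 members matched RefSeq by Entrez identifier.

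Differences were fitted with limma 3.58.1 (lmFit and eBayes) in R 4.3.3 over all genes and called at a Benjamini-Hochberg adjusted p under 0.05, two-sided. The script was tested on simulated data. Named genes are every called member, Slc7a11 and Slc3a2, the 3 brightest of each family, and called genes of the companion lists; members outside this rule and uncalled list genes that are named were chosen after their values were seen. Members and lists were chosen with earlier results of these data known. Alternatives changed the normalization, filter, variance model, array weights, probe set choice, threshold, pairing and arrays used. Motifs were searched in the 250 bases before start sites (RefSeq, GRCm38.p6). Array number limits the precision, and protein sequences were not used here.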

Additional observations from a re-analysis of the deposited data

How the results depend on the processing

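Under the 18 planned settings and the 1 added, the count of called transporters, 6 over all arrays, ranged between 4 and 8 except for the intensity trend (10, with Slc38a6, Slc36a4, Slc43a3 and Slc7a7 added), adjusted p under 0.10 (9) and a fold of at least 1.5 (0). Leaving out 1 array at a time gave 4 to 6, and leaving out shControl 1 and shHLX 3 together, chosen after seeing the data, gave 4. Over all genes the count of 1233 became 2261 with the intensity trend, 800 with the replicate block, 698 to 901 without single arrays, 741 without both arrays, 838 without moderation (where the 6 transporters held Slc38a1 and Slc7a1, not Slc7a8 and Slc43a2) and 260 at a fold of 1.5; the cause was not tested. A check for pairing gave correlations of -0.170, 0.129 and -0.152 for same-numbered arrays. These are not correlations of whole signals, which were 0.9942 or more between groups. They gave no sign of pairing by number. So few arrays cannot exclude that same-numbered arrays shared an infection or culture. With the replicate block 5 transporters passed, Slc7a5 being lost. Leaving out 1 array turned the sign of 13 members, none of them called. Among the genes named by the rule it moved Slc1a2 between -0.0896 and 0.028, Slc1a7 between -0.0081 and 0.0583, Slc36a2 between -0.0355 and 0.00068 and Slc3a1 between -0.064 and 0.0498, while without both arrays Slc1a2 was 0.0015 and Slc36a2 0.0046, and Slc38a1 was 0.014 as the mean of its probe sets. Of the members, 23 lay below the median signal, 2 of them called, and no detection calls were used, so background may limit the dim ones.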
